A study of Mus musculus with 4 samples.

Results

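The interleukin 6 (IL-6) family and stromal cytokine genes examined here are 10 genes: the ligands Il6, Il11 and Lif, the receptor chains Il6st and Osmr, the IL-1 family genes Il33, Il1rl1 and Il1r1, and the growth factor genes Il7 and Csf1. Every probe set annotated with exactly 1 gene symbol from this set was taken, and the probe set with the highest mean signal over the 4 arrays represented the gene. This found 20 probe sets for 9 of the 10 genes, among 18193 genes in all, and Il1rl1 was paired with no probe set here. All 9 genes passed the filter on dim genes, which kept 11677 genes.

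RNA came from mouse cells labelled as collecting lymphatic endothelium, taken from the vessels that drained a flank tumour of 2000 mm3. In the VEGFD group (2 arrays) the tumour was grown from 293EBNA cells, a human embryonic kidney-derived line, carrying the Apex vector with VEGFD, the gene of a secreted growth factor for lymphatic and blood vessels. In the Apex group (2 arrays) the same cells carried the empty vector. Every mouse in both groups therefore bore a 293EBNA tumour, had the dye Patent Blue V injected into it and had its draining vessels dissected and magnetically sorted. The strain, age and sex of the mice and the sorting antibody are not stated, nor is it said whether a replicate was 1 mouse or a pool. The labels differ on the tissue, since the extraction text speaks of lymph node endothelium.

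IL-6 family cytokines are small secreted proteins that bind a ligand-specific receptor chain and then recruit the shared chain gp130, encoded by Il6st. The receptor activates JAK kinases and the transcription factor STAT3, and STAT3 induces Socs3, which shuts the receptor off. IL-1 family cytokines act through the adaptor MyD88 and the transcription factor NF-kB, which in turn can switch on Il6. IL-7 keeps lymphocytes alive, CSF-1 does the same for macrophages, and connective tissue and vessel cells are known sources of both.

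The endothelial label was checked against marker genes, summed over 1 probe set per gene. Of the 12 pan-endothelial markers, 6 and 3 exceeded the filter signal of 25.3 in VEGFD replicates 1 and 2, against 6 and 12 in Apex replicates 1 and 2. Among the 7 tested, 0 had a VEGFD minus Apex difference above 0 and 7 had one below, with 0 higher and 0 lower without overlap. The summed signal of all 12 was 1207 and 490 in VEGFD arrays and 773 and 4406 in Apex arrays. Emcn alone gave 2670 of the sum in Apex replicate 2. Eng exceeded the filter signal on every array, with 829 and 271 in VEGFD arrays and 417 and 765 in Apex arrays. Pecam1, which encodes the endothelial junction protein CD31, had 3.25 and 2.22 in VEGFD arrays against 2.92 and 141 in Apex arrays. Of the 10 lymphatic markers listed, 9 had a probe set. Of these, 5 and 6 exceeded the filter signal in VEGFD arrays, and 5 and 6 in Apex arrays. Prox1, the lymphatic master regulator, was among those below it on every array, with 11.6 the highest. The 10 fibroblast markers summed to 23056 and 23554 in VEGFD arrays and 23623 and 20011 in Apex arrays. Of 9 tested, 5 were above 0 and 4 below. Dpt, 1 of them, had 204 and 168 in VEGFD arrays against 2725 and 2407 in Apex arrays. The 12 leukocyte markers summed to 949 and 903 in VEGFD arrays and 1337 and 1246 in Apex arrays, with 6 above the filter signal on each array. S100a8 alone had 283 and 71.4 in VEGFD arrays and 529 and 477 in Apex arrays. Of the 6 tested leukocyte markers it was the 1 lower without overlap. Ptprc, which encodes the pan-leukocyte protein CD45, was at most 13.0 on any array. In such bulk samples fewer cells of a type and less RNA per cell cannot be told apart.

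Il6 and Il11 stood higher in VEGFD arrays by more than 2-fold, Csf1 was slightly higher, and the 6 other measured genes overlapped between the groups. None of the 9 passed the limma test at an adjusted p of 0.05, nor did any of the 11677 tested genes (0%). At an unadjusted p under 0.05 there were 2 of the 9, both higher (Il6 and Il11, of which Il11 passed the filter only through its VEGFD arrays), where 5.7% of all tested genes were that low and 1.95% were that low and higher. By a description without a test, the same 2 genes were at least 2-fold apart with no overlap between groups, against 3.88% of all tested genes, 1.09% higher and 2.79% lower. The members were chosen with earlier results of these data known, so the shares of all genes do not test them as a set. With every array centred on its median, 192 genes were 2-fold higher and 239 lower without overlap, against 127 higher and 326 lower as deposited. Without regard to size, 3 of the 9 were higher without overlap (Il6, Il11 and Csf1) and 0 lower, where 38.5% of all tested genes did not overlap, 16.6% higher and 21.8% lower. The difference was above 0 for 6 of the 9, and for 46.4% of all tested genes. The median difference of the 9 genes was 0.30 on the log2 scale, against -0.04 for all tested genes. Each difference below is VEGFD minus Apex in log2(signal + 16), its standard error (SE) comes from limma with 2 arrays in each group, and p-values are two-sided. Folds are on the same scale, which understates them for dim genes. An exact permutation test of 2 arrays against 2 cannot go below p = 0.333.

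**Figure D1:**
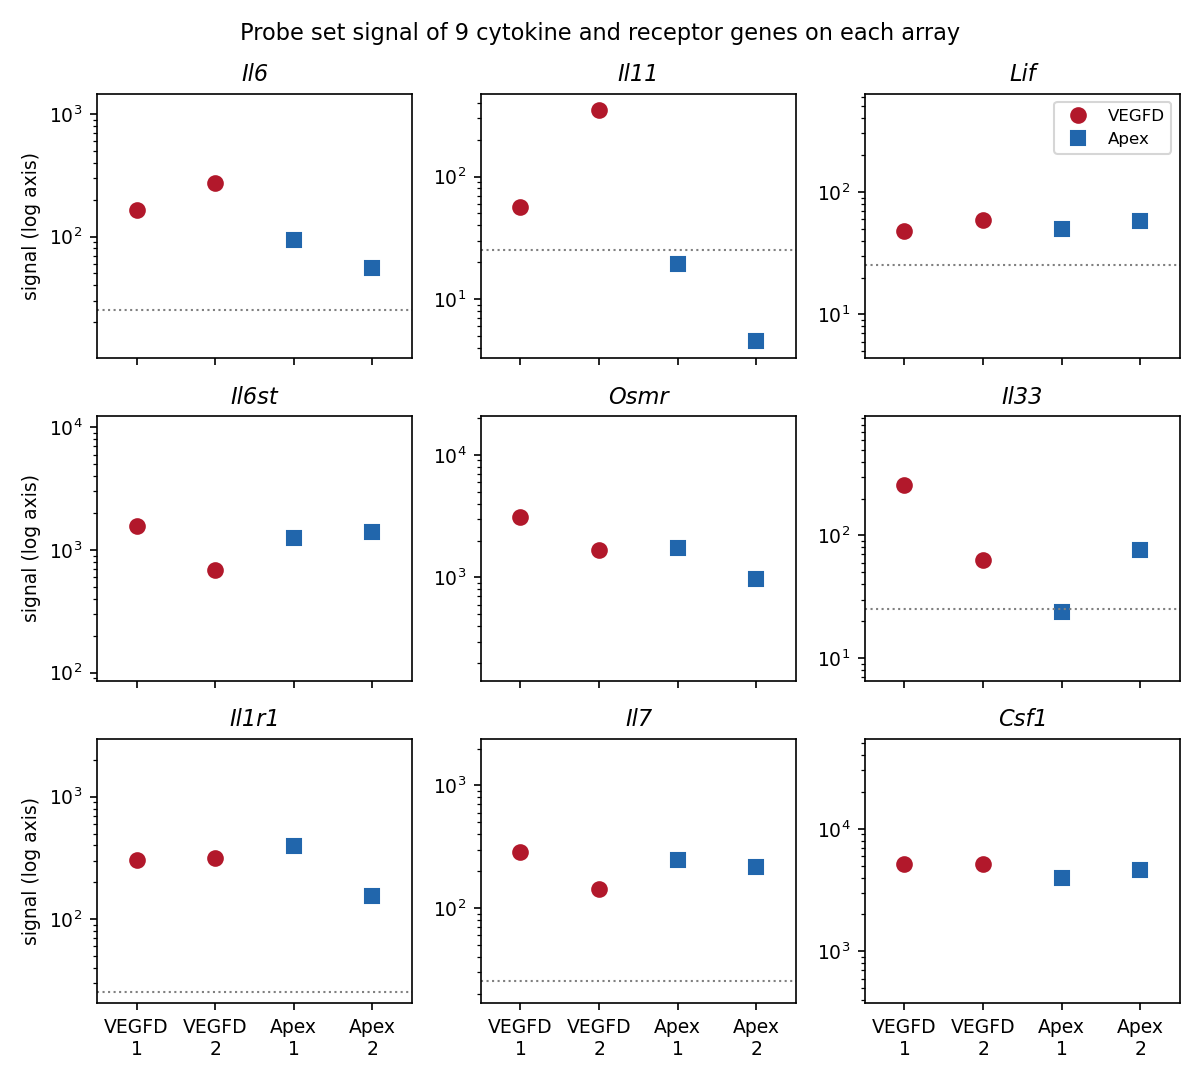
Signal of the representative probe set of each of the 9 genes (log axis, each panel spanning the same number of log units around its own values) on VEGFD arrays (circles) and Apex arrays (squares), with the filter signal of 25.3 as a dotted line where it falls in the panel. Il6, Il11 and Csf1 are the panels in which both circles lie above both squares, and the 2 Il11 squares, at 19.5 and 4.51, lie below the dotted line.

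Il6 encodes the founding member of the family, a cytokine that many stromal and immune cells release during inflammation. Its signal was 164 and 274 in VEGFD replicates 1 and 2, against 94.6 and 54.9 in Apex replicates 1 and 2. Both VEGFD arrays lay above both Apex arrays, with VEGFD replicate 2 the highest and Apex replicate 2 the lowest. On the log2 scale Il6 averaged 7.84 ± 0.48 in VEGFD arrays and 6.47 ± 0.45 in Apex arrays (SD, n = 2 each). The difference was 1.37 ± 0.37 (SE), or 2.58-fold, with a 95% interval of 0.43 to 2.30, an unadjusted limma p of 0.0125 and a limma adjusted p of 0.823. Each VEGFD array taken alone was higher than the Apex mean, by 1.02 for VEGFD replicate 1 and 1.71 for VEGFD replicate 2.

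Il11 encodes a gp130 cytokine made mainly by fibroblasts and other stromal cells. Its signal was 56.5 and 349 in VEGFD replicates 1 and 2, against 19.5 and 4.51 in Apex replicates 1 and 2. The groups did not overlap, but VEGFD replicate 2 stood far above VEGFD replicate 1, and both Apex signals lay under the filter signal, so Il11 passed the filter through its VEGFD arrays. The difference was 2.59 ± 0.80 on the log2 scale, or 6.03-fold, with a 95% interval of 0.59 to 4.60, an unadjusted limma p of 0.0204 and a limma adjusted p of 0.823. Adding 64 to each signal in place of 16 gave 1.56, and adding 1 gave 3.74. With VEGFD replicate 2 left out the difference was 1.43, and with VEGFD replicate 1 left out it was 3.76 with a limma adjusted p of 0.0111. That fit holds no spread between VEGFD arrays, and 3.19% of all tested genes passed in it.

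The promoter windows of the 3 genes whose groups did not overlap are shown because these are the members that stood apart in the same direction. They are RefSeq sequences of build GRCm38.p6, from 250 bases before to 50 after a listed gene start, which is base 251, written 5′ to 3′ on the strand of the gene. Capitals mark the letters of an NF-kB motif (GGGANNNNCC, either strand) or an AP-1 motif (TGANTCA, which reads the same on both strands). NF-kB and AP-1 are transcription factors of the inflammatory and stress response. Il6 lies on the plus strand at chr5:30012864-30013163, Il11 on the minus strand at chr7:4778092-4778391, and Csf1 on the minus strand at chr3:107760420-107760719.
Il6: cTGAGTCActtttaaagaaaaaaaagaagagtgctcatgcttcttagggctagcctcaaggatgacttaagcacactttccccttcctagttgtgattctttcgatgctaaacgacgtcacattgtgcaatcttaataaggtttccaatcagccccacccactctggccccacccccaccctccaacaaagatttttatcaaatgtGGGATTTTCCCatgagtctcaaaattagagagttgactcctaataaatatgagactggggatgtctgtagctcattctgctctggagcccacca
Il11: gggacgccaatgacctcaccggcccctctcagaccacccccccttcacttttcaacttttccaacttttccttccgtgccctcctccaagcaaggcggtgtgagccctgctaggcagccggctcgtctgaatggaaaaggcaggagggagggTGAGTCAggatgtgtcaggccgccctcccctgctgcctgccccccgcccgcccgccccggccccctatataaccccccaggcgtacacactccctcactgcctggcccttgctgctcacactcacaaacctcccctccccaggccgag
Csf1: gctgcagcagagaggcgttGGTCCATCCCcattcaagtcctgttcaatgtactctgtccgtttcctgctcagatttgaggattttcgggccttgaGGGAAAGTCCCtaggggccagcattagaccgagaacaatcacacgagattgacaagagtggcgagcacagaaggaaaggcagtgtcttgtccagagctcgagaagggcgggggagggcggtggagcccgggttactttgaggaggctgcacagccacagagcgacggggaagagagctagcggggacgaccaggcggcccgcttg
The Il6 window held an AP-1 match at bases 2 to 8 and a pair of overlapping NF-kB matches, 1 on each strand, at bases 207 to 217. The Il11 window held an AP-1 match at bases 153 to 159 and no NF-kB match, and a second listed Il11 window, at chr7:4782808-4783107, held neither. The Csf1 window held NF-kB matches at bases 20 to 29 and, overlapping, at bases 96 to 106. Of all 32851 windows, 20.7% held the NF-kB letters and 7.81% the AP-1 letters. The STAT motif (TTCNNNGAA, the same on both strands) was in 8.3% of all windows and in none of the 13 windows of the 9 members that the table lists. Among the other members, the Lif window (chr11:4257318-4257617) and the Osmr window (chr15:6874264-6874563) each held 1 NF-kB and 1 AP-1 match.

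Lif, which encodes leukaemia inhibitory factor, a gp130 cytokine known for its role in stem cells and embryo implantation, had nearly the same signal on all arrays. Its signal was 47.6 and 58.9 in VEGFD arrays, against 49.8 and 57.4 in Apex arrays. The VEGFD arrays enclosed the Apex arrays, and the difference was -0.01 ± 0.27 with a 95% interval of -0.69 to 0.67. Its sign turned with the scaling, to 0.11 once each array was centred on its median. A second Lif probe set was below the filter, with 4.05 and 29.4 in VEGFD arrays and 16.8 and 28.4 in Apex arrays.

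The genes whose pattern over the 4 arrays was nearest to Il6 were Adamts6, which encodes a secreted metalloprotease, Uap1, which encodes an enzyme that makes a nucleotide sugar for glycosylation, and Tubb3, a beta-tubulin gene. Nearness was the root mean square distance between log2 values after each gene's mean was removed, over 4 arrays, and was 0.034 for Adamts6, 0.087 for Uap1 and 0.092 for Tubb3, against a deviation of 0.76 of Il6 from its own mean. Adamts6 had signals of 89.4 and 145 in VEGFD arrays and 48.0 and 25.8 in Apex arrays.
Nearest to Il11 were Myl9, which encodes a myosin light chain of smooth muscle, Rassf6 and Serpinb2, which encodes plasminogen activator inhibitor 2. Their distances were 0.35, 0.38 and 0.43, against a deviation of 1.56 of Il11 from its own mean. These genes, like those nearest to Il6, were picked by the same values out of 11677 tested genes, so near patterns were to be found. Serpinb2 overlapped between the groups, with 560 and 4886 in VEGFD arrays and 610 and 294 in Apex arrays. Myl9 had signals of 638 and 2387 in VEGFD arrays and 421 and 217 in Apex arrays. Smooth muscle and pericyte markers were mixed. Of 7 tested, 4 were above 0 and 3 below, with 2 higher and 2 lower without overlap and 0 passing. Among all tested genes 16.6% were higher and 21.8% lower without overlap. Tagln, an actin-binding protein gene of smooth muscle, had 1632 and 5553 in VEGFD arrays and 454 and 746 in Apex arrays, a difference of 2.34, and Acta2, which encodes smooth muscle actin, had a difference of 0.78. Pdgfrb, which encodes a growth factor receptor of pericytes, and Des, which encodes the muscle filament protein desmin, were lower without overlap, at -0.97 and -1.33. All 8 genes summed to 8735 and 16179 in VEGFD arrays and 7194 and 8640 in Apex arrays, and VEGFD replicate 2 was highest for this sum, for Il6 and for Il11. Of these markers 5 and 6 exceeded the filter signal in VEGFD arrays and 5 and 7 in Apex arrays. Myh11, which encodes smooth muscle myosin, was at most 19.2 on any array. The part of these cells in the Il6 and Il11 differences was not tested.

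**Figure D2:**
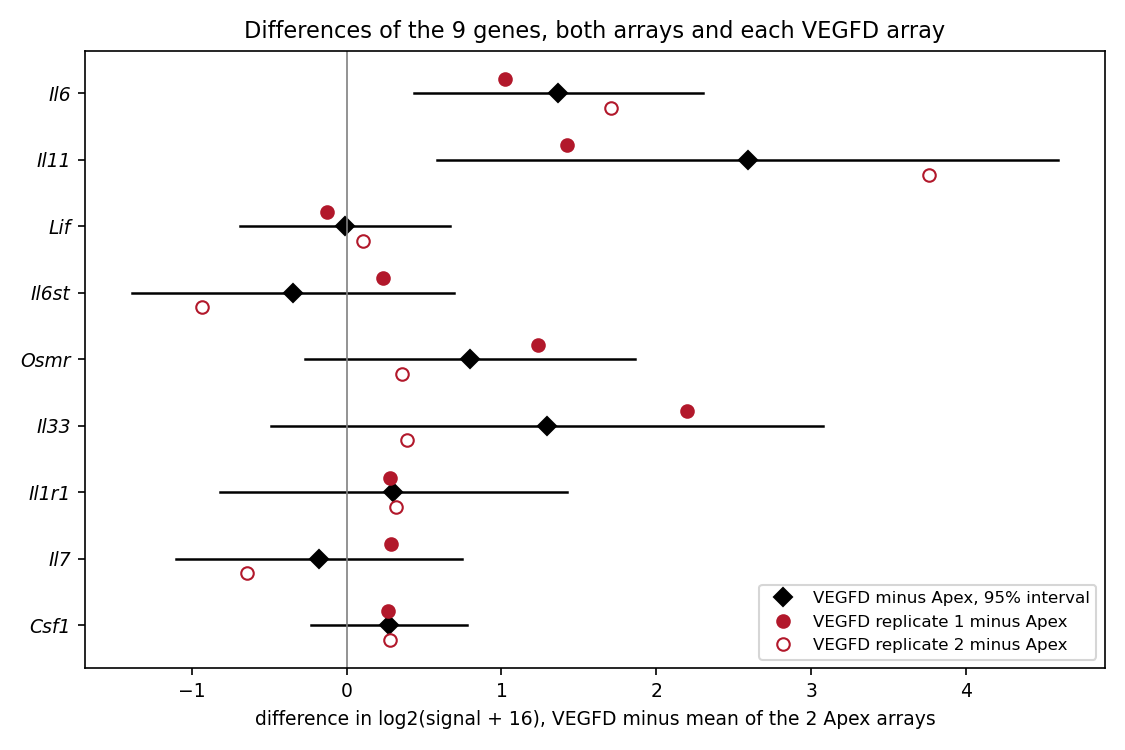
Difference of each of the 9 genes in log2(signal + 16): diamonds give VEGFD minus Apex with the 95% interval of the limma fit, filled circles VEGFD replicate 1 and open circles VEGFD replicate 2, each minus the mean of both Apex arrays. For Il6 and Il11 the open circle lies to the right of the filled one, while for Il6st, Osmr, Il33 and Il7 it lies to the left.

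Il6st, which encodes gp130, had signals of 1555 and 684 in VEGFD arrays, against 1250 and 1390 in Apex arrays. VEGFD replicate 1 was the highest array and VEGFD replicate 2 the lowest, so the groups overlapped. The difference was -0.35 ± 0.41 with a 95% interval of -1.39 to 0.69 (limma adjusted p = 0.869), and without VEGFD replicate 2 it was 0.24. The 4 Il6st probe sets disagreed in sign, with 2 above 0 and 2 below 0. The second brightest had a difference of -0.56 and the next one of 0.45. The dimmest was higher in VEGFD arrays without overlap, with 248 and 99.3 against 76.2 and 52.2 in Apex arrays and a difference of 1.14. The sign for gp130 RNA thus depended on the probe set, and the mean of all 4 was 0.17.

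Osmr encodes the oncostatin M receptor chain that pairs with gp130. Its signal was 3087 and 1673 in VEGFD arrays, against 1754 and 966 in Apex arrays. VEGFD replicate 2 fell between the Apex arrays and VEGFD replicate 1 lay above all others. The difference was 0.80 ± 0.42 with a 95% interval of -0.27 to 1.86 and a limma adjusted p of 0.823. Leaving out VEGFD replicate 2 gave 1.23 and leaving out VEGFD replicate 1 gave 0.36. Leaving out Apex replicate 1 gave 1.22 and leaving out Apex replicate 2 gave 0.37. A second Osmr probe set had 456 and 191 in VEGFD arrays and 154 and 87.4 in Apex arrays, with no overlap and a difference of 1.24. The remaining one lay below the filter and ran the other way, with 16.4 and 14.5 against 21.5 and 35.1 in Apex arrays.

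**Figure D3:**
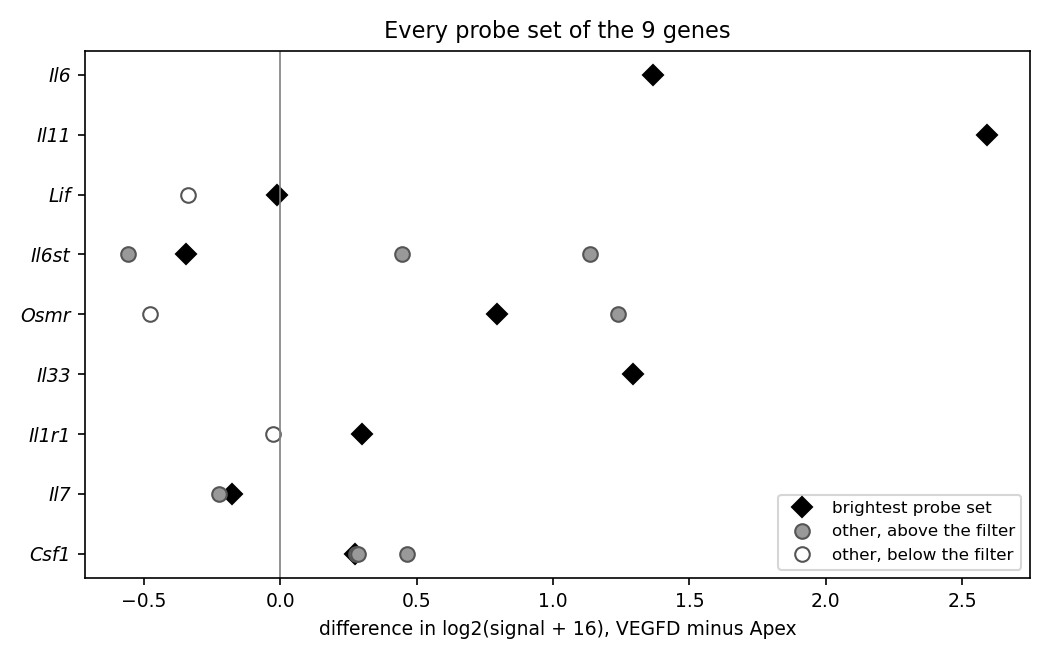
Difference in log2(signal + 16), VEGFD minus Apex, of all 20 probe sets of the 9 genes, with the representative probe set as a diamond, others as grey circles, and those below the filter as open circles. The 4 Csf1 probe sets lie together between 0.28 and 0.46, whereas the 4 of Il6st run from -0.56 to 1.14.

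Among the IL-6 family as listed, both VEGFD arrays lay below both Apex arrays for Osm and Il6ra, while Lifr overlapped. Osm was the 1 of 6 tested ligand genes lower without overlap, and Il6ra the 1 of 5 tested receptor chains. Among all tested genes 21.8% were lower without overlap. Of 6 tested ligand genes, 3 were above 0 and 3 below, and 0 passed. Osm, which encodes oncostatin M, the ligand of Osmr, had signals of 12.1 and 30.9 in VEGFD arrays and 56.1 and 37.0 in Apex arrays, below both Apex arrays on both VEGFD arrays, with a difference of -0.77 ± 0.38. Of 5 tested receptor chains, 3 were above 0, 2 below, and 0 passed, with a median of 0.01 against -0.04 for all tested genes. Il6ra, which encodes the IL-6-specific receptor chain, had 80.3 and 67.0 in VEGFD arrays and 136 and 85.3 in Apex arrays, and a difference of -0.47 ± 0.31. That of Il6ra was -0.18 without Apex replicate 1, -0.77 without Apex replicate 2 and -0.85 as the mean of all its probe sets. Lifr, which encodes the LIF receptor chain, had 151 and 101 in VEGFD arrays and 188 and 64.5 in Apex arrays, inside which both VEGFD arrays fell. Il11ra1 was paired with no probe set here.

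Downstream of the receptors, Jak1 had more signal in VEGFD arrays, Stat3 was level, and Socs3 differed mainly between the VEGFD arrays. Of 10 tested JAK-STAT genes 6 were above 0 and 4 below, and 0 passed. Without overlap 3 of the 10 were higher and 2 lower, where 16.6% of all tested genes were higher and 21.8% lower. Jak1 and Stat5a were named because they had the 2 largest differences of this list. Jak1, which encodes a kinase bound to gp130, had 2237 and 1472 in VEGFD arrays and 1358 and 933 in Apex arrays, without overlap, and a difference of 0.68 ± 0.32 that all 3 of its probe sets shared in sign. Stat3 had 1300 and 912 in VEGFD arrays and 1236 and 958 in Apex arrays, a difference of 0.00 ± 0.28. Stat5a, which encodes another transcription factor of the pathway, had 79.6 and 27.1 in VEGFD arrays and 88.7 and 93.4 in Apex arrays, a difference of -0.74 ± 0.43. Dropping VEGFD replicate 2 moved it to -0.16, and dropping VEGFD replicate 1 to -1.31.
Of 14 tested STAT3 feedback and response genes, 4 were above 0, 10 below and 0 passed, with a median of -0.17. Socs3, the feedback inhibitor that binds gp130, had 865 and 158 in VEGFD arrays and 491 and 383 in Apex arrays. It was highest in VEGFD replicate 1 and lowest in VEGFD replicate 2, the array with the highest Il6, and its difference of -0.20 ± 0.76 was 0.97 without VEGFD replicate 2. Lcn2, which encodes the iron-carrier binding protein lipocalin 2, had 212 and 12.5 in VEGFD arrays and 158 and 425 in Apex arrays. The groups overlapped, and the difference of -1.78 ± 1.03 rested on VEGFD replicate 2: it was -0.28 without that array and -1.11 without Apex replicate 2. Without VEGFD replicate 1 it was -3.28 with a limma adjusted p of 0.0285, in the same fit with 1 VEGFD array as for Il11. Hp, which encodes the haemoglobin-binding protein haptoglobin, had 2.21 and 12.7 in VEGFD arrays and 34.2 and 351 in Apex arrays, a difference of -2.57 ± 0.94. Both VEGFD signals lay under the filter signal, so Hp passed the filter through its Apex arrays. Dropping Apex replicate 2 gave -1.14 and dropping Apex replicate 1 gave -4.01. It was -1.50 and -4.07 with pseudocounts of 64 and 1 on all arrays. The 3 adipocyte markers that had a probe set, of 5 listed, summed to 1112 and 1061 in VEGFD arrays and 1794 and 4221 in Apex arrays. Nearly all of that was Fabp4, with 1098 and 1047 in VEGFD arrays and 1741 and 4073 in Apex arrays. Adipoq had 12.7 and 12.5 in VEGFD arrays and 38.3 and 145 in Apex arrays. Of the 3 markers, 1 exceeded the filter signal in each VEGFD array and 2 in each Apex array. Lep was below it on every array, with 15.0 and 2.80 in Apex arrays. The part of adipocytes in the Hp difference was not tested. Saa3, an acute phase gene, and Timp1, which encodes a metalloproteinase inhibitor, were higher without overlap, at 0.79 ± 0.25 and 0.70 ± 0.22. They were 2 of 14, where 16.6% of all tested genes were higher without overlap. Hp and Junb, which encodes an AP-1 subunit, were the 2 lower without overlap, with Junb at -0.19, where 21.8% of all tested genes were lower. Saa3, Timp1 and Junb were picked out after their values were seen.

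Il33 encodes a nuclear cytokine that damaged endothelial and stromal cells release and that binds the receptor encoded by Il1rl1. Its signal was 260 and 63.1 in VEGFD arrays, against 23.7 and 75.5 in Apex arrays. VEGFD replicate 1 was far above the other arrays, while VEGFD replicate 2 was between the Apex arrays. The difference was 1.29 ± 0.71 with a 95% interval of -0.49 to 3.07 and a limma adjusted p of 0.825. Leaving out VEGFD replicate 2 gave 2.19 and leaving out VEGFD replicate 1 gave 0.39. Leaving out Apex replicate 2 gave 1.90 and leaving out Apex replicate 1 gave 0.69. Once each array was centred on its median the groups of Il33 no longer overlapped. Then 3 of the 9 members (Il6, Il11 and Il33) were 2-fold higher without overlap, where 1.64% of all tested genes were. Il11 had passed the filter only through its VEGFD arrays. With quantile normalization in place of centring the member count was 2, the same as with the deposited scaling.

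Il1r1 encodes the signalling receptor for IL-1. Its signal was 307 and 315 in VEGFD arrays, against 395 and 156 in Apex arrays. The VEGFD arrays were alike and lay between the Apex arrays. The difference was 0.30 ± 0.44 with a 95% interval of -0.82 to 1.42, with -0.33 when Apex replicate 2 was left out and 0.93 when Apex replicate 1 was left out. Its second probe set was dim on every array, at most 2.80.
Il1rap, which encodes the chain that IL-1 and IL-33 receptors share, had 348 and 392 in VEGFD arrays and 265 and 239 in Apex arrays, higher without overlap, with a difference of 0.53 ± 0.23 and a limma adjusted p of 0.823. Of all tested genes 16.6% were higher without overlap. The 3 Il1rap probe sets above the filter ran from 0.017 to 0.94, and the mean of all its probe sets was 0.24. Of 6 tested IL-1 family receptor chains 4 were above 0, 2 below and 0 passed. The decoy receptor gene Il1r2 had 246 and 25.9 in VEGFD arrays and 253 and 78.3 in Apex arrays. Il18rap, which encodes a chain of the IL-18 receptor, had 9.05 and 74.4 in VEGFD arrays and 63.1 and 64.4 in Apex arrays.

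Il1b and Il1rn were close to the filter signal, Il18 was brighter, and all 3 were slightly lower without overlap, as were 21.8% of all tested genes. Il1b, a main inflammatory IL-1, had 31.0 and 22.2 in VEGFD arrays and 37.5 and 33.8 in Apex arrays. Il1rn, which encodes the natural IL-1 receptor antagonist, had 28.9 and 25.9 in VEGFD arrays and 32.7 and 37.8 in Apex arrays. Il18 had 114 and 131 in VEGFD arrays and 132 and 186 in Apex arrays. Their differences were -0.29 for Il1b, -0.24 for Il1rn and -0.32 for Il18, and none passed. Median centring of the arrays brought them to -0.16 for Il1b, -0.11 for Il1rn and -0.20 for Il18.
Of 13 tested genes of IL-1 receptor and NF-kB signalling, 7 were above 0, 6 below and 0 passed, with a median of 0.03. Irak2, which encodes a kinase recruited by MyD88, had 238 and 227 in VEGFD arrays and 147 and 124 in Apex arrays, a difference of 0.72 ± 0.24. Map3k7, which encodes the kinase TAK1, had 0.65 ± 0.25, but its 5 probe sets above the filter split into 3 above 0 and 2 below. Nfkbia, the inhibitor gene that NF-kB induces, had 1474 and 1495 in VEGFD arrays and 1510 and 2596 in Apex arrays, and Myd88 had 301 and 394 in VEGFD arrays and 348 and 316 in Apex arrays.

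Il7 had signals of 284 and 142 in VEGFD arrays, against 244 and 217 in Apex arrays. As for Il6st, VEGFD replicate 1 was the highest array and VEGFD replicate 2 the lowest. The difference was -0.18 ± 0.37 with a 95% interval of -1.10 to 0.74, with 0.29 when VEGFD replicate 2 was left out and -0.64 when VEGFD replicate 1 was left out. The second Il7 probe set had the same order of arrays, with 70.8 and 18.3 in VEGFD arrays and 50.0 and 45.6 in Apex arrays.
Il7r, which encodes the IL-7 receptor chain carried by lymphocytes, and Tslp, which encodes a related stromal cytokine, did not pass the filter. Il15ra, which encodes the IL-15 receptor chain, had 15.0 and 11.7 in VEGFD arrays and 35.0 and 51.9 in Apex arrays, lower without overlap at -1.01 ± 0.31, and passed the filter through its Apex arrays. It was short of 2-fold with arrays centred on their medians (-0.88), with quantile normalization (-0.89), with a pseudocount of 64 (-0.47), without Apex replicate 2 (-0.80) and without VEGFD replicate 2 (-0.92). Il15 itself had 32.7 and 19.6 in VEGFD arrays and 34.3 and 36.3 in Apex arrays.

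Csf1 encodes macrophage colony stimulating factor. Its signal was 5148 and 5197 in VEGFD arrays, against 3955 and 4612 in Apex arrays. The VEGFD arrays were nearly equal and lay above both Apex arrays, and all 4 Csf1 probe sets were higher without overlap. The difference was 0.28 ± 0.20, or 1.21-fold, with a 95% interval of -0.23 to 0.78 and a limma adjusted p of 0.828. Over the other 3 probe sets the difference ran from 0.28 to 0.46. The probe sets read the same RNA samples and 2 pairs of them share an accession, so they are not replicates of the comparison.
The receptor gene Csf1r, a macrophage marker, had 335 and 558 in VEGFD arrays and 503 and 472 in Apex arrays, with the VEGFD arrays on either side of the Apex arrays. Il34, which encodes the second ligand of that receptor, had 39.8 and 131 in VEGFD arrays and 43.4 and 63.6 in Apex arrays, and Csf3, which encodes granulocyte colony stimulating factor, did not pass the filter. Csf2ra, which encodes a receptor chain for granulocyte-macrophage colony stimulating factor, had 65.2 and 22.9 in VEGFD arrays and 58.5 and 70.2 in Apex arrays. Of 5 tested colony stimulating factor and receptor genes 2 were above 0, 3 below and 0 passed.

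**Figure D4:**
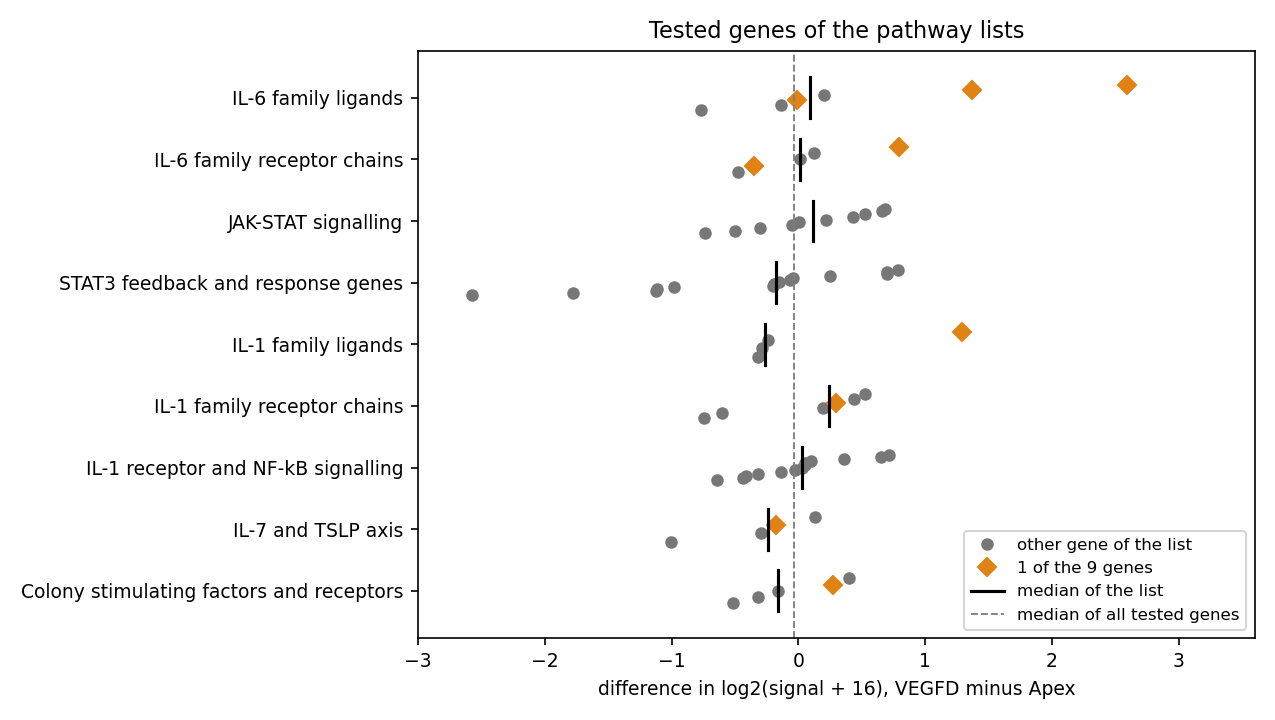
Difference in log2(signal + 16), VEGFD minus Apex, of each tested gene in 9 pathway lists, with the members described above as diamonds, other genes as circles, the median of each list as a black bar and the median of all 11677 tested genes as a dashed line at -0.04. The list medians lie between -0.26 and 0.25, and Il11 and Il6 lie to the right of the other IL-6 family ligand genes.

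Between the VEGFD arrays the members split. Il6, Il11 and Lif had more signal in VEGFD replicate 2, while Il6st, Osmr, Il33 and Il7 had more in VEGFD replicate 1. Il1r1 and Csf1 were nearly equal in both. With VEGFD replicate 2 left out, 4 of the 9 were 2-fold higher without overlap (Il6, Il11, Osmr and Il33), where 1.72% of all tested genes were. With Apex replicate 1 left out there were 3 (Il6, Il11 and Osmr; 3.36% of all), with Apex replicate 2 left out 3 (Il6, Il11 and Il33; 1.03%), and with VEGFD replicate 1 left out 2 (Il6 and Il11; 4.55%). Il6 and Il11 were the members present in each of these 4 counts. Leaving out an array cannot make separate groups overlap, so either could have left a count only by falling below 2-fold. The filter on all 4 arrays was kept in each count, and Il11 had passed it through its VEGFD arrays.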

How the data were processed

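Each sample was hybridised to 1 Affymetrix mouse expression array. The authors deposited 1 linear intensity for each of 45101 probe sets, 64 of them controls, by an algorithm that the labels do not name. On every array the intensities averaged 150 once the 2% at each end were trimmed, a scaling made before deposit. No detection calls were used, and precision is limited by 2 arrays a group.

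The platform annotation gave 34945 probe sets 1 gene symbol and 932 several, and 9160 were unnamed here. Signals were used as log2(signal + 16), with the brightest probe set per gene. A gene entered the test if it averaged at least 5.37 in log2, the median over non-control probe sets. The groups were then fitted in R 4.3.3 by limma 3.58.1 (lmFit, eBayes with an intensity trend, no block), with Benjamini-Hochberg adjustment over 11677 genes and a threshold of 0.05. The procedure was tested on simulated data. Alternatives covered scaling, pseudocount, filter, probe sets, trend, replicate block and leaving out each array.

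The members and lists were chosen with earlier results of these data known. Genes named were the members, 16 pathway genes, the 2 tested genes of each pathway list with the largest difference and the 3 nearest patterns of 2 members. Other genes were picked after their values were seen. These were the marker genes named singly (Pecam1, Emcn, Eng, Prox1, Dpt, Ptprc, S100a8, Fabp4, Adipoq, Lep, Myh11, Tagln, Acta2, Pdgfrb and Des) and the response genes Saa3, Timp1 and Junb. Promoter windows came from RefSeq, GRCm38.p6, which held 9 of the 10 members.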

Additional observations from a re-analysis of the deposited data

How the results depend on the processing

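Over the 13 alternatives, Il6, Il11, Osmr, Il33 and Csf1 stayed above 0. All 9 members were short of the adjusted threshold in limma in each alternative that tested them, except Il11 without VEGFD replicate 1, where the response gene Lcn2 also passed. Signs turned for Lif (0.11 with arrays centred on their medians, 0.074 with quantile normalization, -0.13 to 0.11 with 1 array left out), Il6st (0.17 with the mean of all probe sets, -0.93 to 0.24 with 1 array left out), Il7 (-0.64 to 0.29) and Il1r1 (-0.33 to 0.93). Among pathway genes Stat3 was -0.024 with quantile normalization and -0.25 to 0.25 with 1 array left out. The other ranges with 1 array left out were -1.93 to 0.72 for Il1r2, -0.55 to 0.79 for Lifr, -0.13 to 0.24 for Myd88, -0.52 to 0.19 for Csf1r, -1.67 to 0.18 for Il18rap, -1.37 to 0.97 for Socs3, -0.30 to 1.09 for Il34 and -1.04 to 0.018 for Csf2ra. Without a change of sign, the differences with 1 array left out also moved by over 1.5 times for Osm (-1.14 to -0.40), Jak1 (0.38 to 0.98), Nfkbia (-0.80 to -0.024) and Il15 (-0.52 to -0.073). So did those for Il18 (-0.54 to -0.10), Il1b (-0.43 to -0.14) and the member Csf1 (0.16 to 0.39). With the mean of all probe sets Map3k7 was 0.22 and Il1rap 0.24.

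The count of genes past the adjusted threshold was 0 in the limma fit, 6 (0 higher) with the replicate block, and 0 to 372 with 1 array left out: 372 without VEGFD replicate 1, 4 without VEGFD replicate 2 and 0 without either Apex array. The number of genes 2-fold apart without overlap was 453, 229 with a pseudocount of 64, 294 with the stricter filter of a mean signal of 100, and 442 to 1348 with 1 array left out, the higher counts being 965 without Apex replicate 1 and 1348 without VEGFD replicate 1. The member count was 2, 3 with arrays centred on their medians, 2 with quantile normalization, and 2 to 4 with 1 array left out. Centring each array moved the median difference of all tested genes to 0.09, against -0.04 as deposited. The labels do not say that equal replicate numbers pair arrays, and over 11677 genes the deviations of same-numbered arrays correlated at 0.20. With the replicate block the limma adjusted p was 0.425 for Il6, 0.402 for Il11 and 0.447 for Osmr, and no member was called. The cause of these shifts was not tested. The number of arrays, 2 a group, and dim signals limit every value.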
